A study of Mus musculus with 22 samples.

Results

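RNA polymerase II (PolII) occupancy in mid-G1 was compared between cells that left mitosis with CTCF and cells that left it after CTCF had been degraded. The comparison takes every peak of the 6 mid-G1 PolII ChIP-seq lists, 3 without and 3 with auxin. Peaks that shared at least 1 bp were merged into regions, and each region was scored in each list by whether a peak was present, by the bases covered by peaks and by the place of its strongest peak when the regions of that list were ordered by fold enrichment. This gave 141603 regions, against 169903 when the 18 PolII lists of the whole series were merged. Of the 141603 regions, 19162 (13.5%) were present in all 6 lists, and these carry the comparisons of rank and extent. A further 66882 (47.2%) were seen in exactly 1 list. The series holds 22 samples, the other 4 being input chromatin.

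All cells were G1E-ER4, a mouse proerythroblast-like line derived from GATA1-null cells and used here without induction of GATA1. In every group, control included, both Ctcf alleles carried a fusion to an auxin-inducible degron (AID) and mCherry, and the cells expressed the plant F-box protein OsTiR from a retroviral vector with GFP. All cultures were held in prometaphase with 200 ng/ml nocodazole for 7 to 8.5 h, and mid-G1 was taken 120 min (2 h) after the drug was washed out. Auxin was present from late in the arrest onward in the CTCF-depleted arm and absent from the control arm. Cells were then sorted for 2N DNA content, and for mCherry signal in the control arm or its absence in the auxin arm, so residual CTCF helped to choose the cells. The 3 libraries of each arm are biological replicates by the series' description, all from 1 engineered line. The erythroid label was checked in the lists. 14 of 15 erythroid and hematopoietic precursor genes had a PolII region over their start site in all 6 lists (Zfpm1 in 4), and none of 25 marker genes of hepatocyte, neuron, muscle, T cell, B cell or embryonic stem cell had one in any list.

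CTCF is a zinc finger protein that stops the extrusion of chromatin loops by cohesin, and its sites mark many domain boundaries and loop anchors. Most PolII leaves the chromosomes in mitosis and returns to promoters as cells enter G1, while domains, loops and contacts between enhancers and promoters are being rebuilt. Removal of CTCF during that window asks whether the return of PolII to genes depends on it. PolII at a start site is a mixture of paused and newly initiating enzyme, whereas PolII in the gene body and past the gene end is elongating or terminating. In these bulk lists a lower share of cells with PolII at a region and less PolII per cell cannot be told apart.

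The sequences shown first come from 7 of the 15 regions whose rank changed, 4 that fell and 3 that rose, and are read from mm9, plus strand, 5′ to 3′. Regions whose stretch overlaps an exon are not shown. Those of Rdm1, Wdr85, Rpl27a, Nomo1 and near A430110L20Rik overlap no exon and are also left out. For promoters they are the bases just before the annotated start, and for regions away from promoters the bases around the peak summit. They are shown so that the regions can be located and their motifs seen. Capitals mark a TATAAA box, an E-box (CACGTG, the site bound by Myc and Max), the G-rich word AGGGGGC that overlaps one end of the CTCF motif, or a match to the core of the CTCF motif, written here as CCANNAG directly followed by NNGGC and searched on both strands. No capitals are present where none of these words was found. The second Hook2 sequence, of 60 bases, lies upstream of the promoter stretch within the same region, around its CTCF core match. Core matches 569 bp before the Mrps2 start and 557 bp past the Pabpc4 start, at promoters that fell, are not shown.
Pabpc4 promoter, lower with auxin, chr4:122959918-122960067, plus strand: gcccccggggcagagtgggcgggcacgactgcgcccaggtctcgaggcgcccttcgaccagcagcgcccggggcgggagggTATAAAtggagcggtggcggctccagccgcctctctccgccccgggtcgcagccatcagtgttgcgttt
SNORA71 region summit, lower with auxin, chr2:158178764-158178913, plus strand: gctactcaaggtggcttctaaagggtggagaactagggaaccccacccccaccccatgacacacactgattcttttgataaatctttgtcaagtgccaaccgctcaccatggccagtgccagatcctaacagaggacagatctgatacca
Summit near Mir92-1, lower with auxin, chr14:115448431-115448580, plus strand: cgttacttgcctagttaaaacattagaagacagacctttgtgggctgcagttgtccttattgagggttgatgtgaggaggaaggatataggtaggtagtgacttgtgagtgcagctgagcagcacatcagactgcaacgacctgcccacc
Mrps2 promoter, lower with auxin, chr2:28323436-28323585, plus strand: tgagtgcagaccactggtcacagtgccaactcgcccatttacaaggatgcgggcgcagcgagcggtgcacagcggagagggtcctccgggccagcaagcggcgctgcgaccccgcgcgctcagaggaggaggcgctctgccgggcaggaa
Hook2 promoter, higher with auxin, chr8:87514344-87514493, plus strand: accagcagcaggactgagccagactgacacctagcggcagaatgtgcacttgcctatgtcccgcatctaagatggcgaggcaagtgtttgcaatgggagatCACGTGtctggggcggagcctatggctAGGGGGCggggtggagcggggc
Hook2 upstream CTCF core match, higher with auxin, chr8:87513865-87513924, plus strand: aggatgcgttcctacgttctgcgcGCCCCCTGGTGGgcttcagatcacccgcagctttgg
Mapk14 promoter, higher with auxin, chr17:28828137-28828286, plus strand: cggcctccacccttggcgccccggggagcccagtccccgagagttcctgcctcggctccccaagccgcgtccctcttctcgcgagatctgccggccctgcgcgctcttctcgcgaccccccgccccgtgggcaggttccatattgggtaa
Summit near Atp6v0e, higher with auxin, chr17:26799992-26800141, plus strand: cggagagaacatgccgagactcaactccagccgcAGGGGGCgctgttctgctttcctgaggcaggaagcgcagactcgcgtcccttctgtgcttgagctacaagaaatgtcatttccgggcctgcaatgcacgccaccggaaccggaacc

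The lists of the 2 arms were similar in size. The control lists held 50594, 88496 and 102243 peaks and the auxin lists 99936, 107666 and 74672. Peaks covered 22.7, 57.5 and 51.2 Mb in the control lists and 55.2, 64.0 and 39.8 Mb in the auxin lists. The first control library stood apart with the fewest peaks and the lowest depth, 4.51 reads per kb of genome against 8.35 to 10.2 in the other 5, an estimate made from the background level in the list. On the log2 scale the auxin mean differed from the control mean by 0.27 in peak number, 0.36 in covered length and 0.05 in median peak width, with an exact permutation p of 0.6 for each, where 3 against 3 libraries allow no p below 0.1. The bases shared between lists, as a Jaccard index, averaged 0.458 for pairs of the same arm and 0.464 for pairs of different arms, so lists of the same arm shared no more than lists of different arms (exact one-sided permutation p = 0.6). This difference changed sign without the second or the third control library, and those in peak number and covered length changed sign without the first. The order of the regions by PolII strength was therefore used for the comparison. Ranks deep in a list still depend on how many weak regions it holds, and when ranks were taken only among the 19162 regions in all 6 lists, 7 of the 15 calls described below remained.

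**Figure D1:**
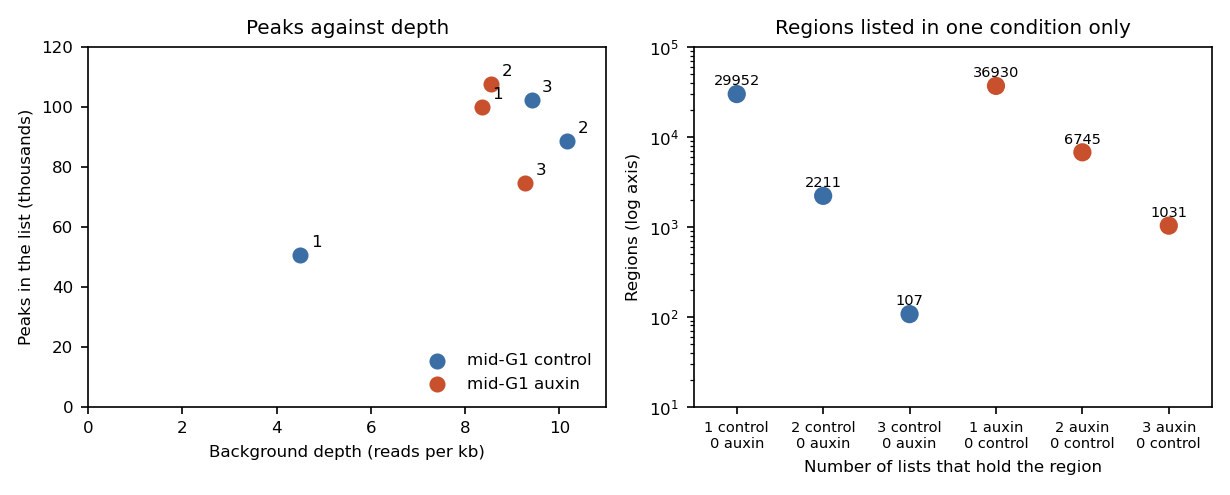
Number of peaks in each mid-G1 list against its background depth in reads per kb, with points numbered by replicate (left), and the number of regions listed in 1, 2 or 3 lists of a single arm (right, log axis). The first control list holds 50594 peaks against 74672 to 107666 in the other 5, and 107 regions were in all 3 control lists and no auxin list against 1031 the other way round.

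Regions present in all 3 lists of 1 arm and in none of the other were few and weak. Regions seen in only 1 or 2 lists of a single arm were many. In control lists alone 29952 and 2211 regions were seen in 1 and 2 lists, and in auxin lists alone 36930 and 6745. 107 regions (0.0756% of 141603) were in all 3 control lists and no auxin list, and 1031 (0.728%) were in all 3 auxin lists and no control list. Without the shallow first control library these counts were 1881 and 1088. Of the 107 control-only regions 67 (62.6%) lay in gene bodies, 20 (18.7%) just past gene ends and 2 (1.87%) over a coding start site, against 73.0%, 7.98% and 6.58% of all 141603 regions. Of the 1031 auxin-only regions 694 (67.3%) lay in gene bodies, 209 (20.3%) between genes, where 10.4% of all regions lay, and 32 (3.10%) over a coding start site. The best placed control-only region was intergenic, 299 bp wide and 22026 bp downstream of the start of Pmvk, which encodes a kinase of the mevalonate pathway, with ranks of 5574.5, 10756.5 and 9301.5. The best placed auxin-only region lay over the start site of Rpgr, a ciliary GTPase regulator gene, with ranks of 7012, 6046.5 and 5754.5. The next control-only regions in order were in Igsf8, near Etv6 (12476.5, 10756.5 and 19560), in Klhl17 (11781, 26103.5 and 10266) and near Mgat3. The auxin-only ones were near Uchl3, Mterf, Gm9897 and Ndst1 (12874, 12861 and 11573.5). Neither the 107 nor the 1031 regions held one with a mean rank better than 6271.

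Most of these differences were not carried into the neighbouring stages. Of the 107 control-only regions, 59 (55.1%) had a peak in at least 1 auxin list of early-G1 or late-G1, and 829 of the 1031 auxin-only regions (80.4%) had a peak in a control list of those stages. Peaks of those stages were assigned to the mid-G1 regions, and a peak spanning several was counted at the first only, so presence may be missed. By this count a small set kept the pattern in all lists of early-, mid- and late-G1. 5 regions were present in all 7 post-mitotic control lists and in none of the 7 auxin lists, among them those near Pmvk, in Igsf8, near Mgat3 and in Tab1. The region in Tab1 and the region near Mgat3 lie on chromosome 15 within and 2899 bp past the gene for Tab1, an activator of the kinase TAK1. 14 regions showed the opposite pattern, and the strongest 3 of them sat just upstream of annotated starts, 333 bp from Uchl3 (a ubiquitin hydrolase gene), 212 bp from Mterf (a mitochondrial transcription terminator gene) and 219 bp from Gm9897. The region near Uchl3 had ranks of 9716.5, 6277 and 9135 in the auxin lists and was in none of the control lists. Tab1 was named after its values were seen.

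The rank comparison found 15 regions of 19162 that moved beyond the spread between libraries. A rank of 1 is the strongest region of a list, and the change is the mean of −log2 rank with auxin minus that without, so that −1 stands for a doubled rank number and a weaker place. By limma with Benjamini-Hochberg adjustment over all 19162 regions, 8 regions fell (0.0417%) and 7 rose (0.0365%) at an adjusted p below 0.05. At an unadjusted p below 0.05 there were 874 lower and 608 higher regions. Without any test, all 3 auxin ranks were worse than all 3 control ranks in 1504 regions (7.85%) and better in 1086 (5.67%). The median control rank was 700.7 for the regions that fell and 6876 for those that rose, against 10220 over all regions tested. Among those that fell, Mrps2 and the region near A430110L20Rik had mean control ranks of 3258 and 10254. Control ranks are part of the change that picked these regions, so their level is not separate from that choice. 5 of the 8 and 6 of the 7 lay over the start site of a coding gene, as did 40.5% of all regions tested. No region in a gene body passed the test.

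**Figure D2:**
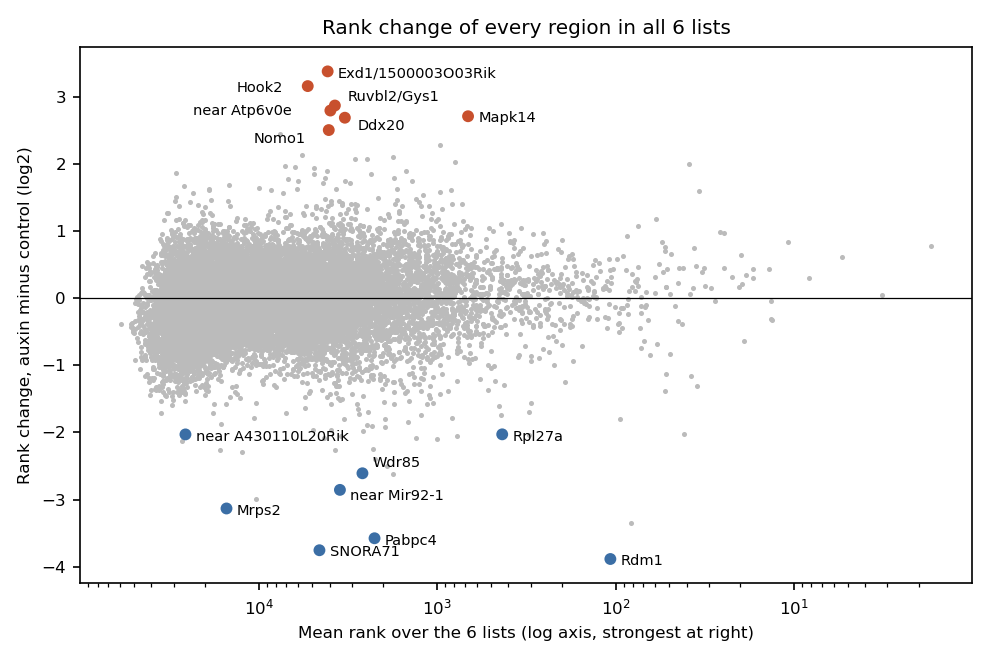
Rank change with auxin (log2 scale, positive for a stronger place) of the 19162 regions against their mean rank over the 6 lists (log axis, strongest at the right), with the 8 regions that fell and the 7 that rose coloured and named. The called regions lie beyond 2 in either direction, from −3.89 at Rdm1 to 3.38 at Exd1/1500003O03Rik, and the median of all regions is −0.03.

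**Figure D3:**
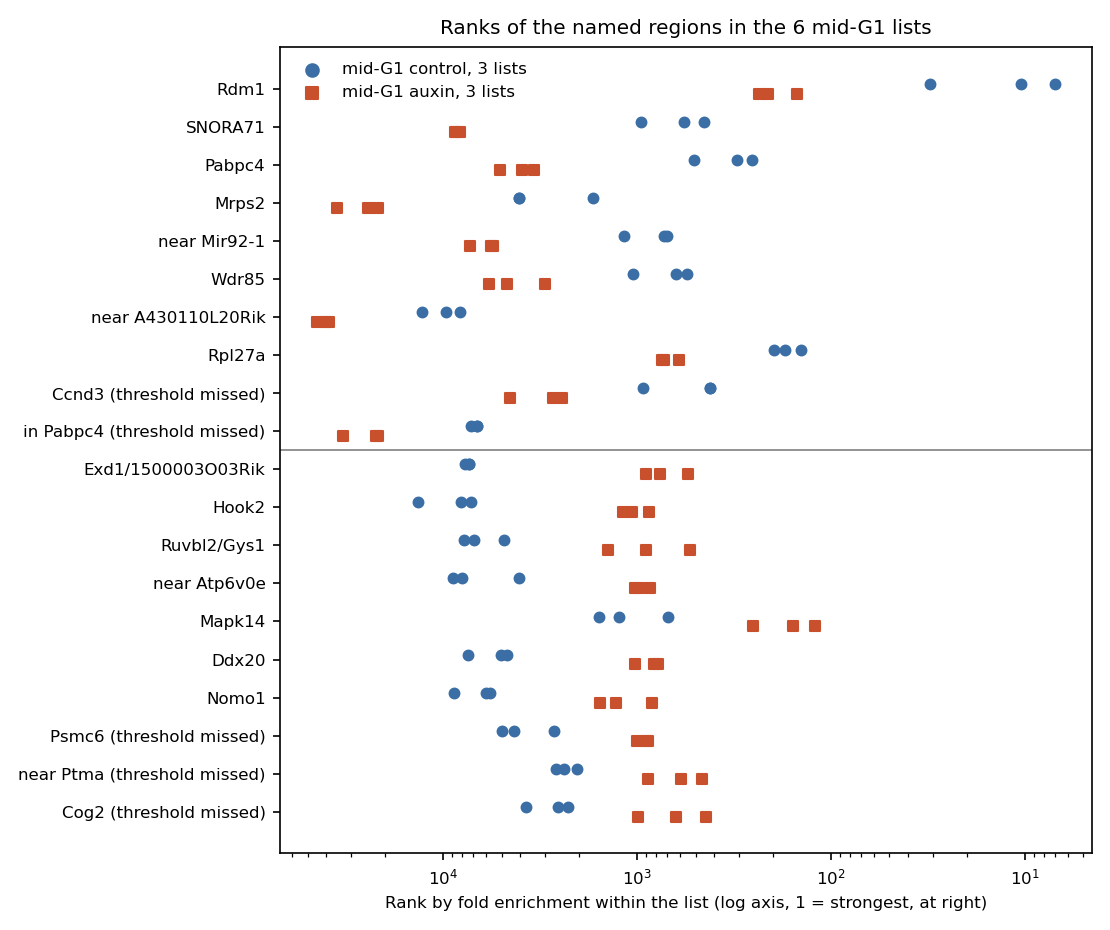
Rank of the 15 called regions and of the next 5 that missed the threshold in each mid-G1 list (log axis, strongest at the right), with circles for control and squares for auxin. In each of the 20 regions the 3 auxin libraries lie wholly on 1 side of the 3 control libraries, as at Pabpc4 with 255 to 511 in control and 3391.5 to 5086.5 in auxin.

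One of the largest falls was at the promoter of Pabpc4, which encodes a cytoplasmic poly(A) binding protein. This region (chr4:122959725-122960575, from 343 bp before to 507 bp after the start site) stood at ranks 511, 305.5 and 255 in control and at 5086.5, 3391.5 and 3919 in auxin. The 2 sets do not overlap, and the change was −3.58 ± 0.34 (SE, n = 3 and 3) with an adjusted p of 0.00256. Fold enrichment over local background was 31.1, 47.0 and 62.0 without auxin and 21.5, 29.8 and 23.2 with it, so the fall was also seen in the authors' own values before ranking.

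A region that covers the start of a SNORA71 gene, a small nucleolar RNA of the class that guides pseudouridylation, fell as far. Its summit lay outside protein-coding genes and 3451 bp from the nearest SNORA71 start, so the ranked signal was not at that start. The fall cannot be given to SNORA71 alone. At chr2:158176766-158183136 the control ranks were 452, 572 and 957 and the auxin ranks 8598.5, 8182.5 and 8654.5, a change of −3.76 ± 0.33 with an adjusted p of 0.0018. Fold enrichment was 32.6, 37.2 and 42.1 against 14.3, 16.5 and 13.01, and on the log2 fold enrichment scale the region also passed. SNORA71 has several annotated copies, so reads of near-identical copies may have been split or dropped when they were mapped. When peaks within 1 kb were joined, this region merged with its neighbour and its adjusted p became 0.075.

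Rdm1, a gene for a RAD52-related protein of DNA repair, gave the largest change on the rank scale. Its promoter region (chr11:101487758-101492078) was among the very strongest without auxin, at ranks 10.5, 31 and 7, and stood at 211, 234 and 149 with it. The change was −3.89 ± 0.48 with an adjusted p of 0.0124. At such low rank numbers a few places count for much on the log2 scale. Fold enrichment went from 120.5, 93.0 and 115.5 to 66.0, 66.6 and 68.7, and on the log2 fold enrichment scale the adjusted p was 0.159. The auxin to control ratio of fold enrichment was 0.62, against 0.55 at Pabpc4.

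2 further promoters fell. Mrps2 encodes a protein of the small subunit of the mitochondrial ribosome, and its promoter region (chr2:28323452-28323890) had ranks of 4045.5, 4048 and 1680 in control and 35084, 24307 and 21778 in auxin, a change of −3.13 ± 0.39 (adjusted p = 0.0124). No peak was assigned to it in either early-G1 auxin list, and both early-G1 control lists had one. Wdr85, a gene of diphthamide synthesis on elongation factor 2, had ranks of 551, 627.5 and 1044.5 in control and 4691, 5835.5 and 2992 in auxin (chr2:24814141-24819516), a change of −2.61 ± 0.36 (adjusted p = 0.0254).

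Outside start sites the regions that fell lay past a microRNA cluster and past a gene end. The first was chr14:115448101-115451195, with its summit outside genes and 4857 bp downstream of the start of Mir92-1, a member of the microRNA cluster named for miR-17 and miR-92 that is known for its role in cell proliferation. Its ranks were 725, 1173 and 704 in control and 5530.5, 7253 and 5662 in auxin, a change of −2.86 ± 0.32 (adjusted p = 0.00695). The second was 4100 bp past the end of A430110L20Rik (chr1:183162336-183163108), weak in both arms at ranks of 8223 to 12824 in control and 38839 to 44714 in auxin, with a change of −2.03 ± 0.30 (adjusted p = 0.0337).

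The last region that fell covered Rpl27a, a ribosomal protein gene (chr7:116661385-116670715). Its ranks were 197.5, 172 and 143 in control and 729, 608 and 744 in auxin, a change of −2.03 ± 0.29 (adjusted p = 0.031). Its fold enrichment overlapped between the arms, at 47.3, 58.7 and 75.5 without and 44.2, 50.8 and 41.1 with auxin. Ribosomal protein genes have many processed copies that can share reads. A region of 10096 bp that covers a start site of Ccnd3, the D-type cyclin of erythroid precursors, came next and missed the threshold. It had 932, 419.5 and 421.5 in control, 2709, 2427.5 and 4507 in auxin and a change of −2.50 ± 0.39 (adjusted p = 0.0547). Its summit lay 6664 bp downstream of the nearest start and 448 bp past the gene end, so the ranked signal was not at the start site. The 3 other tested regions within the Ccnd3 gene had changes from 0.35 to 0.67, on the opposite side of 0. Among them was the region over another Ccnd3 start, 87506 bp upstream, at 0.51.

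Among the regions that rose, the shared start site of Exd1 and 1500003O03Rik gave the clearest values. Exd1 encodes a protein with an exonuclease domain. At chr2:119372537-119374052 the ranks were 7387.5, 7687 and 7380.5 in control and 895, 548.5 and 758.5 in auxin, so each arm was tight and they lay far apart. The change was 3.38 ± 0.30 with an adjusted p of 0.0018, and fold enrichment was 10.3, 12.4 and 16.9 without auxin and 41.8, 52.4 and 41.0 with it, a ratio of means of 3.45.

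Hook2, whose product links organelles to microtubules, rose by a similar amount. Its promoter region (chr8:87513132-87514914) had ranks of 13464, 7221.5 and 8074 in control and 1068.5, 1181 and 872 in auxin, a change of 3.16 ± 0.33 (adjusted p = 0.00446). Fold enrichment was 6.92, 13.1 and 15.5 against 39.6, 42.7 and 39.4. The covered bases rose with it, from 482, 580 and 667 to 1676, 1378 and 1255. The nearest other promoter, that of the immediate early gene Junb 7309 bp away, had a change of 0.03 ± 0.35 and ranks between 204 and 466 in all 6 libraries.

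4 more coding start sites and 1 intergenic region rose. Ddx20, a DEAD-box helicase gene of the complex that assembles small nuclear ribonucleoproteins, went from 7457.5, 5015.5 and 4661.5 to 821, 1020 and 777 (chr3:105489852-105492185; change 2.69 ± 0.31, adjusted p = 0.00822). Mapk14, the gene of the stress kinase p38α, went from 1570.5, 689 and 1240.5 to 252, 121 and 157 (chr17:28827242-28829738; change 2.71 ± 0.39, adjusted p = 0.031). It was the strongest of the regions that rose, in both arms. Nomo1, a gene for a membrane protein of the endoplasmic reticulum, went from 8835, 5758.5 and 6035 to 1546.5, 1292.5 and 840.5 (chr7:53288686-53291790; change 2.50 ± 0.34, adjusted p = 0.0202).

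A region that covers the start sites of Ruvbl2, an ATPase of chromatin remodelling complexes, and Gys1, the muscle-type glycogen synthase, had ranks of 7834, 4836 and 6955.5 in control and 531.5, 901 and 1407.5 in auxin (chr7:52685433-52691196; change 2.87 ± 0.39, adjusted p = 0.0202). Which of the 2 genes the signal belongs to cannot be told apart. The intergenic region lay 13274 bp upstream of Atp6v0e, a gene of the vacuolar proton pump, with ranks of 4045.5, 8900 and 7999.5 in control and 981, 1021 and 859.5 in auxin (chr17:26799623-26801148; change 2.80 ± 0.35, adjusted p = 0.0124). The promoter of Atp6v0e itself had a change of 0.05 ± 0.41. The next 3 missed the threshold, Psmc6 (2.07 ± 0.32, adjusted p = 0.0506), a region near Ptma (1.90 ± 0.32, adjusted p = 0.0866) and Cog2 (2.11 ± 0.36, adjusted p = 0.091).

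The nearest tested promoters on either side of a called region were not called with it. For each of the 15 called regions the nearest tested region over another coding start site was taken on either side. The gaps ran from 7048 bp at Wdr85 to 3372279 bp near Mir92-1, and nearer start sites without a peak in all 6 lists were skipped. None of these neighbours was called, and the lowest adjusted p among them was 0.571. That was at Ndufs5, 434399 bp beyond Pabpc4, with a change of 1.00 ± 0.38. Only 5 lower and 6 higher of all 7752 coding start sites were called, so the lack of a call among so few neighbours cannot be read. Without overlap between the arms, Ralgapb, Ndufs5 and Capza1/St7l were higher and Wdr5, Lhb and 6530418L21Rik lower. Of all coding start sites 7.88% were higher and 4.41% lower in this way. Within the genes themselves few further regions could be tested. In Mapk14, 6 gene body regions had a median change of −0.24, and in Nomo1, 10 had a median of −0.02, although both promoters had risen. In Wdr85 the only other tested region had a change of −1.09 and its libraries did not overlap between the arms.

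Leaving out 1 library at a time separated the firm calls from the others. The SNORA71, Pabpc4 and Exd1/1500003O03Rik regions stayed under an adjusted p of 0.05 in all 6 fits, and Hook2 in 5, with 0.0563 without the third auxin library. The regions near A430110L20Rik and at Rpl27a, Ruvbl2/Gys1 and Nomo1 were called in none of the 6, and the other 7 (Rdm1, Mrps2, near Mir92-1, Wdr85, near Atp6v0e, Mapk14 and Ddx20) in 1 to 3 of them. On the log2 fold enrichment scale 7 of the 15 stayed under the threshold, and Pabpc4 had an adjusted p of 0.0577. On a normal score scale, which gives less room to the strong end of the list, 0 regions were called in either direction. All 15 kept their direction in every alternative in which they were tested. Since their arms did not overlap, leaving out a library, a replicate block or a variance trend could not have reversed them.

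The early-G1 and late-G1 libraries, which were not used in the mid-G1 fit, were scored over the same regions. The joint fit takes its spread from the mid-G1 libraries too, which picked these regions. Its p-values are therefore not separate from that choice. In a joint fit of the 14 post-mitotic libraries, with 2 libraries per arm at 60 min and at 240 min, 11 of the 15 called regions had a peak in every list. Pabpc4 was lower with auxin at each stage. Its early-G1 ranks were 475.5 and 417.5 in control and 6721.5 and 6175.5 in auxin, and its late-G1 ranks 515 and 299 against 6635 and 4156. The changes were −3.85 in early-G1 (adjusted p = 0.000363) and −3.74 in late-G1 (adjusted p = 0.000422). SNORA71 was likewise lower, by −3.004 in early-G1 (adjusted p = 0.0162) and −3.39 in late-G1 (adjusted p = 0.00338). Exd1/1500003O03Rik was higher at both, by 2.89 (adjusted p = 0.00272) and 3.76 (adjusted p = 0.000223). Its early-G1 ranks were 4231.5 and 3980.5 against 410 and 748.5.

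Values at the other stages were more mixed for other regions. Ruvbl2/Gys1 had a change of 1.16 in early-G1 (adjusted p = 0.764) and of 4.07 in late-G1 (adjusted p = 0.000765), where its ranks were 13220.5 and 9529 in control and 500 and 889 in auxin. Hook2 had 2.26 in early-G1 (adjusted p = 0.0373) and 2.06 in late-G1 (adjusted p = 0.0557). The region near Atp6v0e had 1.46 in early-G1 (adjusted p = 0.414) and −0.06 in late-G1 (adjusted p = 0.987), and that near Mir92-1 had −1.68 (adjusted p = 0.107) and −0.46 (adjusted p = 0.808). A test of the mid-G1 change against the mean of the early- and late-G1 changes found 4 of 14222 regions (0.0281%), and none of them was among the 11 called regions that could be tested. The lowest adjusted p among these 11 was 0.338, for the regions near Mir92-1 and near Atp6v0e. Mrps2, Wdr85, Rpl27a and the region near A430110L20Rik had no value in at least 1 list and were not tested for a difference between stages. A missing value need not mean that no peak was there, since a peak spanning several regions was counted at the first only. Rpl27a had no value in the first late-G1 auxin list and stood at rank 61 in a late-G1 control list.

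**Figure D4:**
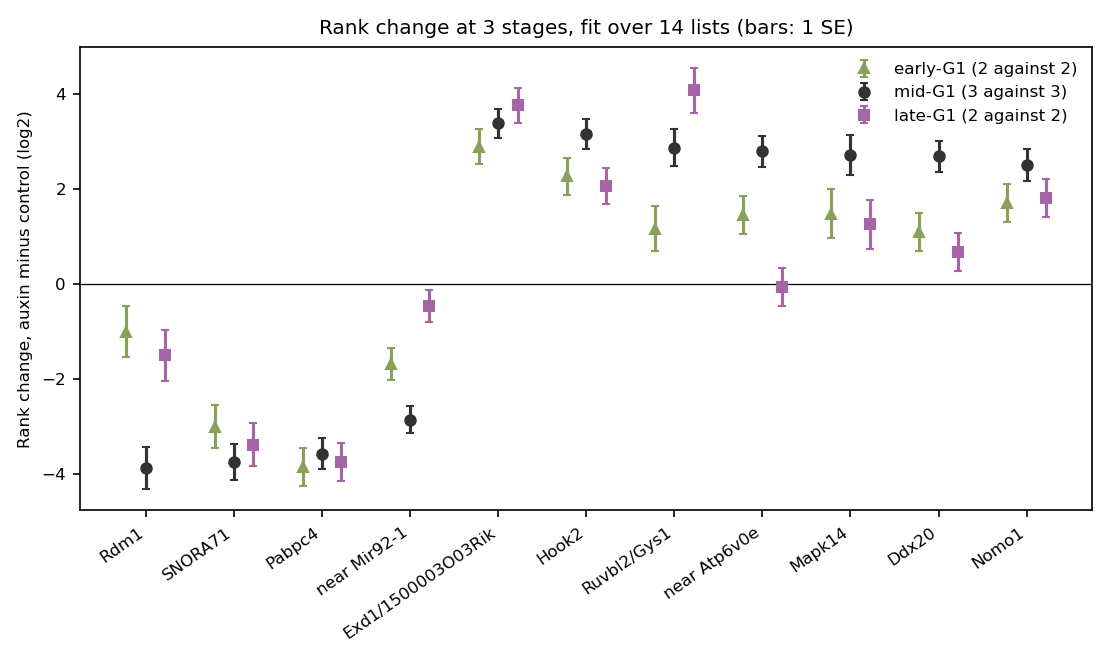
Rank change with auxin in early-, mid- and late-G1 for the 11 called regions present in all 14 post-mitotic lists (points, with bars of 1 SE from the joint fit). Pabpc4 lies at −3.85, −3.58 and −3.74 and Exd1/1500003O03Rik at 2.89, 3.38 and 3.76, whereas the region near Atp6v0e goes from 2.80 in mid-G1 to −0.06 in late-G1.

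Lower values at Pabpc4 were also seen past its promoter, and the coverage of the stretch was not tested. Over the 26100 bp from its start to 10 kb past the end of its main transcript, peaks covered 8851, 17637 and 19299 bp without auxin and 5369, 6069 and 686 bp with it. That is 33.9%, 67.6% and 73.9% of the stretch against 20.6%, 23.3% and 2.63%, with no overlap between the arms (means of 15262 ± 5614 and 4041 ± 2927 bp, SD). The region at the end of the gene (chr4:122975349-122982124) had ranks of 7175.5, 6727.5 and 6691 in control and 22094.5, 21755 and 33009.5 in auxin. Its change was −1.87 ± 0.30 and missed the threshold (adjusted p = 0.0593), but on the log2 fold enrichment scale it passed (adjusted p = 0.0127). The change in its covered bases, −2.10 ± 0.54, did not pass (adjusted p = 0.961, limma). A region in the middle of the gene, 6210 to 7419 bp from the start, had a peak in all 3 control lists and in no auxin list. The promoter region itself covered 364, 529 and 732 bp in control and 636, 784 and 410 bp in auxin, so its width did not follow its rank.

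Covered bases changed in 1 region of 19162 (0.00522%), and it became wider. Per region, covered bases were compared on the log2 scale after centring each library on its median. The region lies across the end of Osbpl2, a gene for an oxysterol-binding protein (chr2:179893126-179904950), and its peaks covered 219, 204 and 450 bp in control and 9565, 10425 and 7227 bp in auxin. The change was 4.71 ± 0.37 (adjusted p = 0.0107). Its ranks were 23845, 48495.5 and 66717.5 in control and 11852.5, 12042 and 11298 in auxin, a change of 1.86 ± 0.38 that did not pass (adjusted p = 0.179). The Osbpl2 promoter had a rank change of 0.28 ± 0.31 and the promoter of Adrm1, the next gene, −0.90 ± 0.47, and neither was called. The call was lost without the first control or the third auxin library and with several other settings. No region became narrower in this limma fit, where 283 regions were narrower and 405 wider at an unadjusted p below 0.05.

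**Figure D5:**
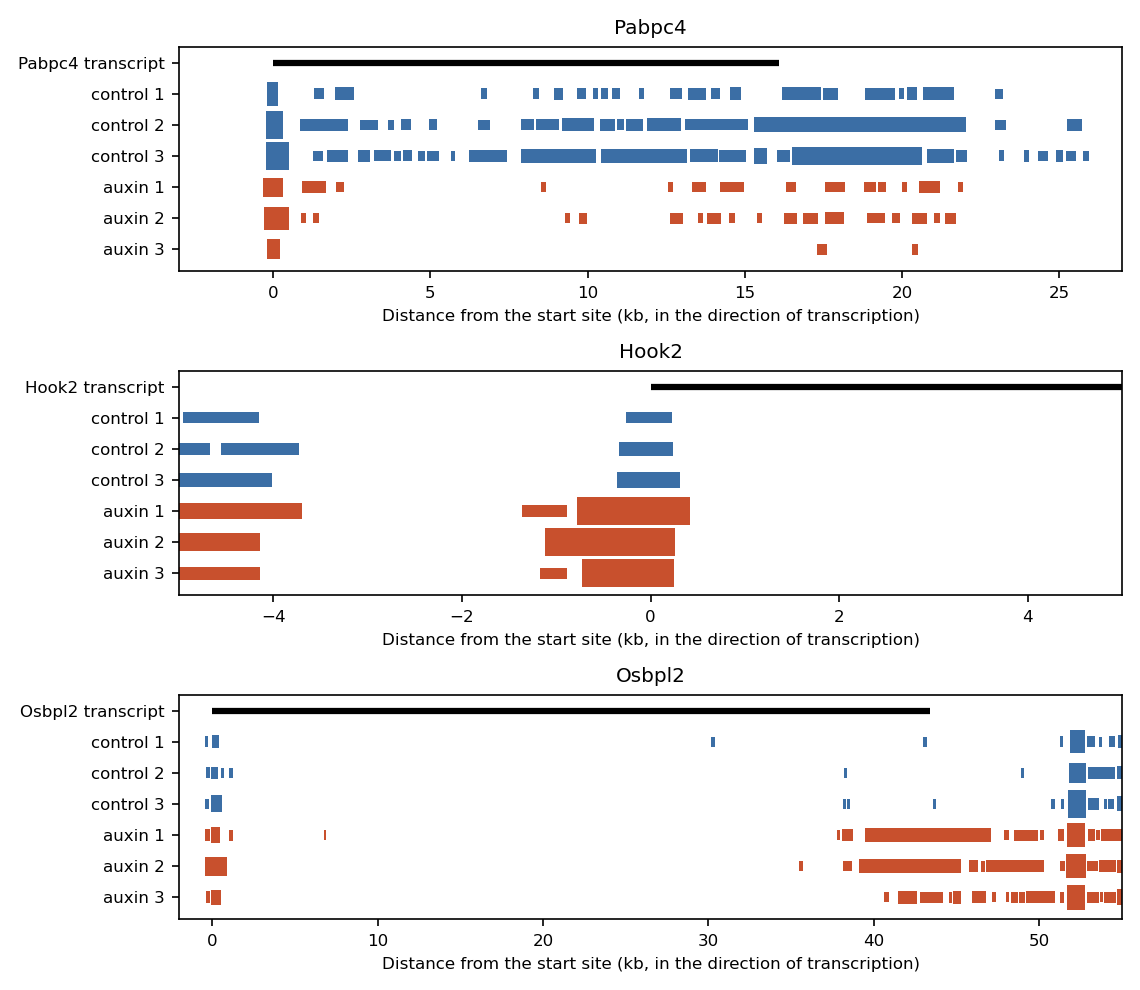
Peaks of the 6 mid-G1 lists over Pabpc4, Hook2 and the end of Osbpl2 by distance from the gene's start site, with bar height growing with fold enrichment. Peaks cover 33.9% to 73.9% of the Pabpc4 stretch in the control lists and 2.63% to 23.3% in the auxin lists, and the block across the end of Osbpl2 covers 204 to 450 bp in control and 7227 to 10425 bp in auxin.

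By position, the median change was 0.07 over the 7752 coding start site regions, −0.13 over 6742 gene body regions, −0.16 over 1551 regions just past gene ends, −0.10 over 1038 start sites of other transcripts, 0.01 over 2079 intergenic regions and −0.03 over all. In each library the median coding start site stood above the median gene body region by 1.53, 1.55 and 1.77 on the −log2 rank scale in control and by 1.73, 1.72 and 1.86 in auxin. The third control library lay within the range of the auxin libraries. The difference from gene bodies of 0.15 was within the spread (exact two-sided permutation p = 0.3, where 0.1 is the smallest possible), and without 1 library at a time it ran from 0.11 to 0.23. Against regions just past gene ends the coding start sites stood higher by 1.58, 1.65 and 1.81 in control and by 1.84, 1.89 and 1.86 in auxin. Against other start sites the values were 1.10, 1.07 and 1.251 in control and 1.254, 1.29 and 1.30 in auxin. In both of these the arms did not overlap, with differences of 0.18 and 0.14 and the smallest p that 3 against 3 libraries allow (exact permutation p = 0.1), and against intergenic regions the difference was 0.04 (exact permutation p = 0.7). Among coding start sites 342 (4.41%) were lower in all auxin libraries than in all control libraries and 611 (7.88%) were higher.

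The promoter ranks of the degraded protein's gene and of the study's example locus were not called. The Ctcf start site had ranks of 7834, 10756 and 6888.5 in control and 8406.5, 11884 and 10304 in auxin, a change of −0.28 (adjusted p = 0.861). Auxin acts on the protein, so the gene's own PolII does not check the depletion. Max, the partner of Myc, had 13464, 8082.5 and 8523.5 in control and 6794.5, 6200 and 9021 in auxin, a change of 0.43 (adjusted p = 0.79), and the arms overlapped. Peaks at that promoter covered 353, 1390 and 1185 bp in control and 2744, 2580 and 1497 bp in auxin, without overlap, a change in covered bases of 1.06 ± 0.30 (adjusted p = 0.963). The 3 tested regions in the Max gene body had rank changes from 0.21 to 0.99, all upward, and 1 of them was higher without overlap.

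Gene lists for this cell type and treatment showed few calls. Of all 7752 coding start sites tested, only 5 were called lower and 6 higher. With calls this rare, neither a list without a call nor a list with 1 is read as a result about the list. Beside the counts of members without overlap between the arms stand the 4.41% lower and 7.88% higher of all 7752 coding start sites. The regions named for Mau2, Zfp143, Bax, Hsp90ab1, Rps2 and Rps27 also cover the start of another gene, and their values cannot be given to 1 gene alone. Of 19 erythroid and hematopoietic regulators with a tested start site region, none passed, 1 was lower and 2 were higher without overlap, and the median change was 0.15 against 0.07 over all coding start sites. Nfe2, the erythroid leucine zipper factor, was the strongest of them with 119.5, 73.5 and 91.5 in control and 68, 114.5 and 135 in auxin. A wide region that covers the starts of Trmt1 and Lyl1, with its summit nearest to a start of Nfix, had a change of 0.18 and cannot be given to Lyl1 alone. Runx1, a factor of early blood cells, had 0.39. Of 13 genes of heme synthesis and the red cell none passed and 3 were higher without overlap, beside 7.88% of all coding start sites, with a median of 0.09. Uros, a heme synthesis enzyme whose region also covers the start of Bccip, had 798.5, 674 and 1127.5 in control and 656, 548.5 and 510 in auxin (change 0.58, adjusted p = 0.699). Cpox and Abcb10 had changes of 0.90 and −0.15.

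Genes of cohesin and of chromatin factors linked to CTCF were tested at 16 start sites, and none passed. 1 was lower and 3 were higher without overlap, beside 4.41% and 7.88% of all coding start sites, with a median of 0.01. Smc3, a cohesin ring subunit, had 230, 239 and 189 in control and 188.5, 148.5 and 99 in auxin (change 0.64, adjusted p = 0.68). Mau2, part of the cohesin loader, had a change of 0.52 and Zfp143 of 0.13. Of 29 genes of PolII subunits and general factors none passed, with a median of 0.15. Polr2a, the largest PolII subunit, stayed among the strongest 27 regions of all 6 libraries, and Gtf2b and Gtf2a1 had changes of 0.17 and 0.15.

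In the G1 set of 22 cyclin, kinase, inhibitor and E2F-Rb genes none passed, with a median of 0.00. Changes ran from −2.50, at the Ccnd3 region whose summit lies past the gene end, to Cdkn1a at 1.08. Cdkn1a, the inhibitor p21, had ranks of 107, 102 and 95 in control and 41, 43 and 62 in auxin, without overlap but with an adjusted p of 0.359. Ccnd2 and Cdk2 had changes of −0.01 and 0.52. Of 14 p53 target genes, Cdkn1a again among them, none passed and 4 were higher without overlap, beside 7.88% of all coding start sites, with a median of 0.12 and changes of −0.12 for Btg2 and 0.12 for Bax.

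Immediate early genes, which answer growth signals within minutes, were tested at 14 start sites with no call. The median was 0.38 and 2 were higher without overlap. Mcl1, a survival factor, had 58, 76 and 77 in control and 45, 40 and 33 in auxin (change 0.84, adjusted p = 0.519). Ier5 and Myc had changes of 0.25 and 0.41. Of 8 genes of the Max and Myc network none passed or lay without overlap, with a median of 0.04, and Mnt and Mlxip had −0.25 and 0.61. Of 11 heat shock and chaperone genes none passed, with a median of −0.17. Hsp90ab1, Hsp90aa1 and Hspa8 had changes of 0.23, 0.57 and −0.02.

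2 lists held a call. Of 20 genes for cytosolic poly(A) binding and mRNA decay only Pabpc4 passed. The list's median was 0.33, and its strongest members Btg1, Pabpc1 and Tob1 had 0.39, 0.37 and −0.45, where Pabpc1 encodes the main cytoplasmic poly(A) binding protein. Of 72 cytosolic ribosomal protein genes only Rpl27a passed. 8 were lower and 3 were higher without overlap, beside 4.41% and 7.88% of all coding start sites, and the median was −0.15. Rps27, Rps2 and Rps20 had changes of 0.18, 0.15 and −0.84, and Rpl9 had −2.06 (adjusted p = 0.107).

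The core of the CTCF motif was found within 300 bases around the summit in 511 of all 19162 regions (2.67%) and in 0 of the 15 called regions, too few for a share this low to be read. Among regions with an unadjusted p below 0.05 it was present in 32 of 874 lower regions (3.66%) and 28 of 608 higher regions (4.61%), and at coding start sites in 9 of 193 lower (4.66%) and 20 of 376 higher (5.32%) against 2.62% of all coding start sites tested. In a window of 2001 bases it was present at 3 of the 15, Mrps2, Pabpc4 and Hook2, and at 17.9% of all regions, 22.3% of the 874 lower and 22.04% of the 608 higher regions. These shares are descriptions, and base composition differed between the sets, with a median GC content of 48.3% in the lower and 60.3% in the higher set against 52.7% in all. The G-rich word AGGGGGC, chosen after these sequences had been seen, was within 300 bases of the summit at Exd1/1500003O03Rik, Ruvbl2/Gys1 and the region near Atp6v0e, 3 of the 7 that rose, at none of the 8 that fell and at 7.55% of all. In the 150 bases before the start site, TATAAA on the gene's strand was found at Pabpc4 (2.09% of tested coding promoters), and CACGTG and AGGGGGC at Hook2 (6.80% and 10.4% of promoters). These are matches of letters and were not tested as sites, and CTCF binding was not measured in these lists.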

How the data were processed

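PolII ChIP-seq peak lists were used as deposited. The submitters' processing notes and the study's methods name Bowtie2 2.2.9 in local mode on mm9, SAMtools 0.1.19, bedtools 2.27.1 and MACS2 2.1.0. Reads of low mapping quality, duplicates, mitochondrial reads, reads on unplaced sequence and reads in blacklisted intervals were removed, and the authors called peaks in each library separately. Each list was called against the input of its cell cycle stage, so by the study's description both arms of mid-G1 share 1 input. Per peak, the authors gave a fold enrichment over local background (a linear ratio), the −log10 p-value and −log10 q-value, and an integer score that was not used for any result. Lists of peaks past a threshold depend on depth, and a region without a peak may hold signal. Read counts per region were not used here.

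Groups were taken from sample titles. In early- and late-G1 lists a peak that spanned several mid-G1 regions was given to the first of them only. Peaks were merged with Python 3.11.15 (pandas 2.3.3, pysam 0.24.0), and regions were ordered in each list by their highest fold enrichment, ties averaged. −log2 rank and log2 covered bases were fitted with limma 3.58.1 in R 4.3.3 over the regions in all 6 lists, with Benjamini-Hochberg adjustment and a threshold of 0.05, after the script had been tested on simulated data. Single values per library were compared by exact permutation tests. Relative depth was derived from the lowest background implied by fold enrichment and −log10 p-value, divided by the narrowest peak. The text names, per direction, the called regions and then the lowest p up to 10, the 5 best placed arm-specific regions, the widest change in covered bases, Ctcf, Max, and the 3 strongest members and all called members of each gene list. Gene names and sequences come from GENCODE vM1 and the NCBIM37 (mm9) genome. Regions, lists and rules were chosen with earlier results of these data known. Alternatives tried were other scales, a variance trend, a replicate block, other filters and joins, and leaving out each library. 1 region is not reported here by name.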

Additional observations from a re-analysis of the deposited data

Results flagged for a closer look

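4 regions had a mid-G1 change that differed from the mean of the early-G1 and late-G1 changes by limma's test of that difference over 14222 regions in all 14 post-mitotic lists. In each of them another stage carried a larger change than mid-G1. Regions were drawn from the mid-G1 lists, and an early- or late-G1 peak spanning several of them was counted at the first only. Extreme ranks in 1 arm of another stage may therefore reflect where a wide peak was counted, which was not tested. At the Pitrm1 start site, a mitochondrial protease gene, the difference was −3.06 (adjusted p = 0.0351). Its mid-G1 ranks were 265.5, 332.5 and 311 in control and 263, 320 and 257 in auxin, and its late-G1 ranks 15436 and 38689 in control against 257 and 287.5 in auxin. At the shared start site of Parp9 and Dtx3l, partners in ADP-ribosylation, the difference was −3.01 (adjusted p = 0.0365), with a late-G1 change of 4.53 and a mid-G1 change of −0.34. In a region in Rsbn1 it was 2.67 (adjusted p = 0.0365), with early-G1 ranks of 295 and 239 in control against 9421 and 9901 in auxin and a mid-G1 change of −0.01. In a region near Fcho2 it was −2.22 (adjusted p = 0.0365), with an early-G1 change of 3.05 and a mid-G1 change of −0.60. There the mid-G1 arms did not overlap, with ranks of 7387.5, 7323 and 9029 in control and 13319, 10694.5 and 12061.5 in auxin. All 4 calls were lost when any 1 mid-G1 library was left out, and their causes were not tested.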

How the results depend on the processing

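Peak lists limit these comparisons, since weak regions are seen only in deep lists and the first control library was the shallowest. Without it the differences reversed to −0.033 in log2 peak number and −0.061 in log2 covered length, and without 1 library at a time they ran up to 0.47 and 0.61. The sharing of bases, same arm minus different arms, reversed to 0.037 without the second and 0.038 without the third control library, and its lowest value was −0.043. Control-only regions numbered 28 with peaks within 1 kb joined, 209 with lists cut to equal size, 66 with at least 200 bp covered and 138 to 1881 without 1 library. Auxin-only regions numbered 396 and 536 under the first 2 of these and 1088 to 5566 without 1 library.

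Regions that fell numbered 0 on the normal score scale, 4 when ranked among the regions tested, 14 with a variance trend and 2 to 8 without 1 library. Those that rose numbered 0, 3, 13 and 1 to 5, and 12 with the spread of all 14 post-mitotic libraries, where 2 regions were narrower and 3 wider. No region was wider without centring, with 2 or more lists per arm, at a stricter peak threshold or with peaks joined, and 0 to 1 without 1 library. The normal score scale moved the median change of all regions by 0.19 and leaving covered bases uncentred by 0.27. For the 20 regions named by rank, 186 alternatives kept direction and side of the threshold, 93 lost and 15 gained the call, and 0 reversed. Their arms did not overlap, so a reversal was not possible without 1 library, with the block or with the trend. The causes were not tested.

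The replicate numbers were not taken as pairs, because the deviations of same-numbered libraries correlated by only 0.0713, 0.112 and 0.244 and the first auxin library correlated better with the second control (0.103). A fit with the replicate block called 12 lower and 8 higher regions, 15 of them those called without it, 0 narrower and 1 wider, and no difference between stages (0). No stage difference was called on the normal score scale (0) or without any 1 mid-G1 library (0).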

Other observations

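2 groups of regions outside the lists were chosen after their values were seen. A second region over SNORA71 and 9430008C03Rik, directly beside the one that fell, had ranks of 377, 588 and 1325 in control and 4517.5, 2112 and 4515.5 in auxin, a change of −2.40 ± 0.47 that missed the threshold (adjusted p = 0.147, limma). The summit of this second region lay 1 bp from the start of 9430008C03Rik. 2 regions near other annotated SNORA71 copies on chromosome 14 had changes of −0.19 and −0.15. A region in Car2, an erythroid carbonic anhydrase gene, had 246.5, 224 and 1365.5 in control and 3011, 4438 and 1294.5 in auxin, so 1 auxin library lay within the control range (change −2.61 ± 0.65, adjusted p = 0.328).

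The clustered histone genes, which are transcribed most in S phase, varied between libraries of the same arm more than other regions. 45 tested regions were named after a gene of the Hist1 to Hist4 clusters. None was called, and 14 of them (31.1%) had a change beyond 1 in either direction, 13 of them downward, against 3.32% of all regions. Their median SE was 0.53 against 0.34 over all. 2 were lower and 2 higher without overlap, beside 7.85% and 5.67% of all regions. Their median ranks per list were 90.5 to 271, where a few places count for much on the log2 scale, against a median control rank of 10220 over all. The comparisons with all regions are therefore not matched for level. A region near Hist4h4 had ranks of 371, 1201.5 and 28044 in control and 4106.5, 12338.5 and 28656.5 in auxin, so the third library of either arm was the weakest. The region in Hist2h4 had 263, 107 and 540 in control and 318, 972 and 3842 in auxin. Histone genes are near-identical copies whose reads may be shared, and neither this nor the share of cells close to S phase was tested.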
